A study of Mus musculus with 6 samples.

Results

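The genes described here encode 5 surface proteins of marrow vessels and stroma that bind leukocytes: Sele, Vcam1, Icam1, Icam2 and Alcam. They were taken by name, and each was read from the probe set that carries its symbol alone, which in all 5 cases was the gene's single such probe set. They are 5 of 19938 genes measured. The samples were sorted from dissociated primary mouse bone marrow. All of them lacked CD45, a leukocyte protein, and Ter119, an erythroid protein, and all carried CD73, an enzyme on stromal and some endothelial cells. They differed in CD105 (endoglin), which is abundant on endothelium: CD73+CD105- (n = 3) and CD73+CD105+ (n = 3). The labels give no treatment other than dissociation and sorting, and they name no strain, age or sex of the mice. They call the samples biological replicates without naming separate animals, so a p-value sets a difference against the spread between these samples. The number of arrays limits how precisely that spread is known.

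Leukocytes leave and enter marrow through its vessels in steps. Selectins such as E-selectin catch flowing cells through sugars on their surface, and immunoglobulin-type molecules then hold them through integrins. VCAM-1 binds the integrin VLA-4 and is known from both marrow endothelium and the reticular stroma around it. ICAM-1 and ICAM-2 bind beta2 integrins; the first is raised by inflammatory cytokines, and the second is held steadily by resting endothelium. ALCAM (CD166) binds CD6 on T cells and also binds itself, and is known from mesenchymal progenitors and osteoblasts.

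The promoters of Sele and Icam1 are shown because both genes are textbook targets of NF-kappaB, the factor through which inflammatory cytokines act, while their transcripts differed unequally between the populations. Each run holds the 250 bases before the start of the gene on the + strand, from RefSeq on GRCm38.p6. The table used held 3 of the 5 genes, Sele, Icam1 and Alcam. Capitals mark matches to the motifs described next.
Sele, chr1:164047984-164048233: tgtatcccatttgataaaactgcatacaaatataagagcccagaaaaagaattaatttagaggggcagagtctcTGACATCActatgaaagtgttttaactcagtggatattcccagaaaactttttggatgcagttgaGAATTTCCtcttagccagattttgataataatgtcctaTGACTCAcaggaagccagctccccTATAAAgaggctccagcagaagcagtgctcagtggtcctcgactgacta
Icam1, chr9:21015690-21015939: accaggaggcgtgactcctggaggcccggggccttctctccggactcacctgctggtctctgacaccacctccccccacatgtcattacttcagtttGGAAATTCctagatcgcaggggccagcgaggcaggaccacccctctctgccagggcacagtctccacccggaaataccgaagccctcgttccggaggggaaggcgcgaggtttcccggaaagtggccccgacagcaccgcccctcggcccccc

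The motifs were chosen after these sequences had been read. The kappaB core GAATTTCC, searched on both strands, lay 111 to 104 bases before the Sele start on the forward strand. In Icam1 it lay 153 to 146 bases before the start on the reverse strand, where it reads GGAAATTC. It occurred in 0.782% of the 32851 promoters in the table. Sele also held TGACATCA, an element like the cAMP response element (both strands, 2.93% of promoters), an AP-1 motif of the form TGANTCA (both strands, 6.75%) and the TATA box TATAAA (forward strand, 7.59%). The AP-1 match and the TGACATCA match do not overlap the kappaB core. The longer kappaB consensus GGGRNNYYCC (R is A or G, Y is C or T, N is any base) was searched on both strands. It was found in 7.25% of promoters and in none of the 3. Alcam held no match to any of these motifs. The base composition differed as well: the share of G and C was 40.4% in Sele, 65.2% in Icam1 and 69.2% in Alcam, with 1, 15 and 22 CG dinucleotides. The medians over all promoters were 52.4% and 6. These matches describe letters in a window and are not evidence of binding.

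The values are RMA log2 expression values, in which a step of 1 is a doubling of signal. Array medians lay between 6.27 and 6.35, and Pearson's r between arrays, across genes that are not independent, was at least 0.984. Genes of olfactory and vomeronasal receptors, which should be silent in marrow, served as a background level: the 95th percentile of the 1194 measured was 6.01. All 5 adhesion genes had both group means above it. Of the 5, 3 rose in CD73+CD105+ cells, 0 fell and 2 did not pass. In limma over all genes 363 passed at a Benjamini-Hochberg adjusted p under 0.05, or 1.82%. Of all genes 1.35% passed with a rise in CD73+CD105+ cells and 0.466% with a fall. The 5 genes were chosen with earlier results of these data known. Their counts therefore describe them and are no test against the shares over all genes. Before adjustment, 3522 of the 19938 genes had a limma p under 0.05, and the unadjusted counts of lists given below should be read beside that. The 3 arrays of each group were fully separated in the same 3 adhesion genes; over all genes 23.7% were. The arrays of replicate 1 stand apart in one respect: over probe sets the mean of both lay within an SD of 0.0627 of the mean of the other 4, against at least 0.202 for the 8 other cross-population pairs. The difference of each adhesion gene is therefore also given for replicate 1 and for replicates 2 and 3.

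**Figure D1:**
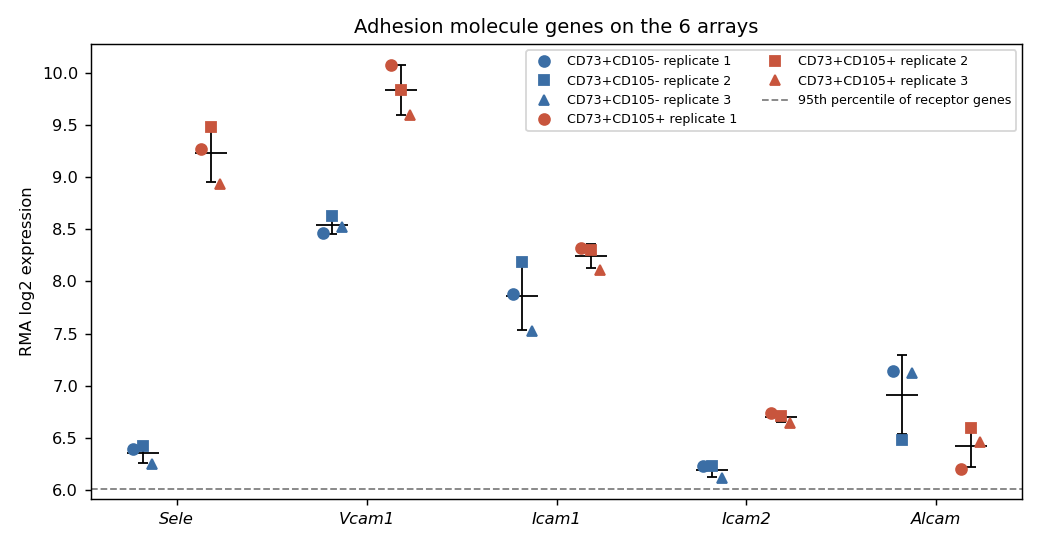
RMA log2 expression (vertical axis) of the 5 genes on each array; blue is CD73+CD105-, red is CD73+CD105+, symbol shape is the replicate, black bars are mean ± SD (n = 3), and the dashed line is the receptor gene percentile of 6.01. Sele, Vcam1 and Icam2 show red points above all blue points, while the groups overlap in Icam1 and Alcam; heights of different genes come from different probes and cannot be set against each other.

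Sele, the E-selectin that catches rolling leukocytes on endothelium, differed most of the 5. Its log2 levels were 6.39, 6.42 and 6.25 in CD73+CD105- replicates 1, 2 and 3, and 9.27, 9.48 and 8.93 in CD73+CD105+ replicates 1, 2 and 3. Every CD73+CD105+ array stood far above every CD73+CD105- array, with a gap of 2.51 between the nearest arrays of the groups. The means were 6.35 ± 0.09 and 9.23 ± 0.27 (SD, n = 3 each), a 7.33-fold rise on the linear scale. The log2 difference was 2.87 (SE 0.14, 95% interval 2.55 to 3.20, limma adjusted p = 0.000272), the 13th largest increase of the 19938 genes. It was 2.88 in replicate 1 and 2.87 in replicates 2 and 3. The lower group lay close to the receptor gene percentile, where RMA compresses differences, so the fold may be understated. Among CD73+CD105+ arrays the spread of Sele was wide: its SD was at or above that of 92.8% of genes there.

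Vcam1, the ligand of VLA-4, was well above the receptor gene percentile in both populations and rose in CD73+CD105+ cells. Its log2 levels were 8.47, 8.63 and 8.52 in CD73+CD105- replicates 1, 2 and 3, and 10.08, 9.83 and 9.60 in CD73+CD105+ replicates 1, 2 and 3. The groups did not overlap, and the CD73+CD105+ arrays were spread over 0.48 against 0.16 in the other group. The means were 8.54 ± 0.08 and 9.83 ± 0.24 (SD, n = 3 each), a rise of 2.46-fold. The log2 difference was 1.30 (SE 0.12, 95% interval 1.0 to 1.59, limma adjusted p = 0.00544). It was 1.61 in replicate 1 and 1.14 in replicates 2 and 3, where the adjusted p was 0.083 in a fit of 4 arrays.

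Icam2, the ICAM of resting endothelium, rose by a smaller step. Its log2 levels were 6.24, 6.23 and 6.11 in CD73+CD105- replicates 1, 2 and 3, and 6.74, 6.71 and 6.65 in CD73+CD105+ replicates 1, 2 and 3. The groups did not overlap, and both were tight. The means were 6.19 ± 0.07 and 6.70 ± 0.05 (SD, n = 3 each), a 1.42-fold rise, with a log2 difference of 0.51 (SE 0.07, 95% interval 0.34 to 0.67, limma adjusted p = 0.0201). The size hardly moved with the arrays used, at 0.51 in replicate 1 and 0.51 in replicates 2 and 3. The call did move. With a term for replicate 1 the adjusted p was 0.0786. Without CD73+CD105- replicate 1 or 2 it was 0.0788 or 0.0616, and without CD73+CD105+ replicate 1, 2 or 3 it was 0.109, 0.0514 or 0.0527. It passed without CD73+CD105- replicate 3 (0.0472). Its CD73+CD105- mean lay close to the receptor gene percentile of 6.01, so this fold too may be understated.

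Icam1, the cytokine-raised ICAM, did not pass. Its log2 levels were 7.88, 8.18 and 7.53 in CD73+CD105- replicates 1, 2 and 3, and 8.32, 8.30 and 8.11 in CD73+CD105+ replicates 1, 2 and 3. The groups overlapped, since CD73+CD105- replicate 2 stood above CD73+CD105+ replicate 3. The means were 7.86 ± 0.33 and 8.24 ± 0.12 (SD, n = 3 each), and the log2 difference was 0.38 (SE 0.16, limma adjusted p = 0.279). The 95% interval of the gene on its own, with no adjustment, ran from 0.0034 to 0.76. An increase as large as that of Sele or Vcam1 lies outside it. The CD73+CD105- arrays set this spread: their SD was at or above that of 95.3% of genes. The Icam1 difference was 0.44 in replicate 1 and 0.35 in replicates 2 and 3. Without CD73+CD105- replicate 3 the difference was 0.21, and without CD73+CD105- replicate 2 it was 0.54, with adjusted p of 0.394 and 0.153.

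Alcam was the one gene of the 5 with a lower mean in CD73+CD105+ cells, and it did not pass either. Its log2 levels were 7.14, 6.48 and 7.12 in CD73+CD105- replicates 1, 2 and 3, and 6.20, 6.60 and 6.46 in CD73+CD105+ replicates 1, 2 and 3. CD73+CD105- replicate 2 lay among the CD73+CD105+ arrays, while the other CD73+CD105- arrays lay above them all. The means were 6.92 ± 0.38 and 6.42 ± 0.20 (SD, n = 3 each), with a log2 difference of -0.50 (SE 0.19, unadjusted 95% interval -0.95 to -0.04, limma adjusted p = 0.248). It was -0.94 in replicate 1 and -0.27 in replicates 2 and 3. Without CD73+CD105- replicate 2 the difference was -0.71, with an adjusted p of 0.0816.

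**Figure D2:**
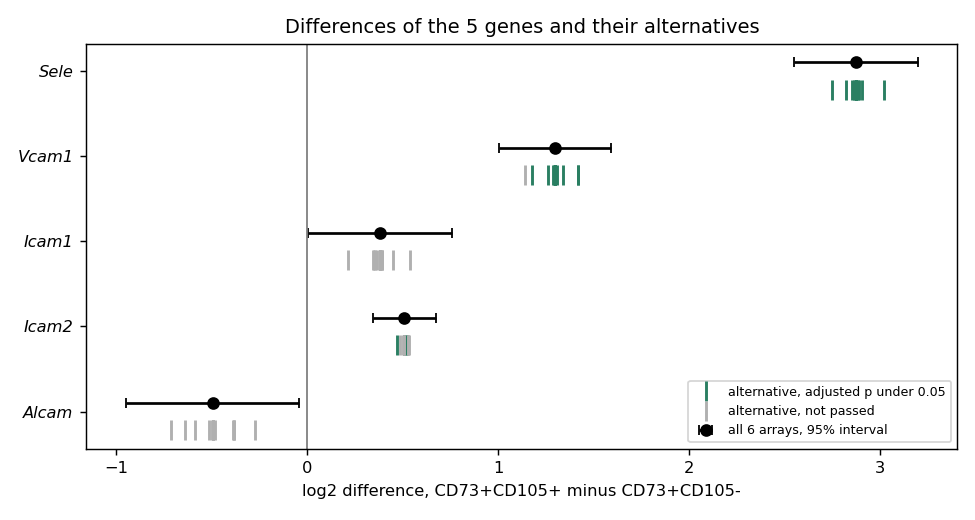
Log2 difference, CD73+CD105+ minus CD73+CD105- (horizontal axis), of each gene with its unadjusted 95% interval (black), and its value under each alternative setting (ticks; green where the adjusted p was under 0.05, grey where not). Sele stands at 2.87 and Vcam1 at 1.30 with mostly green ticks, Icam2 keeps near 0.51 with ticks of both colours, and the ticks of Icam1 and Alcam are all grey.

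The unequal size of these differences was also read within arrays, as the difference of 1 gene's log2 value from another's on the same array, over all 10 pairs of the 5 genes. The difference between populations was larger in Sele than in Vcam1 by 1.58, than in Icam2 by 2.37 and than in Icam1 by 2.49. It was larger in Vcam1 than in Icam2 by 0.79 and than in Icam1 by 0.92. In 8 of the 10 pairs the within-array values of the populations did not overlap, which gave an exact two-sided permutation p of 0.10 (0.125 after Benjamini-Hochberg over the 10 pairs). That is the smallest p that 3 against 3 can give, so no pair could pass by this test. The 10 pairs reuse the same 5 genes and are not independent. Each pair difference follows from the differences of its genes, so the count of pairs largely restates the results of single genes. No share over all gene pairs was computed. Icam1 and Icam2 differed from each other by -0.13 with overlapping values (exact permutation p = 0.50). Icam1 and Alcam overlapped as well. The same exact test on each gene gave 0.10 for Sele, Vcam1 and Icam2 and 0.20 for Icam1 and Alcam.

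Profiles most like those of Sele and Vcam1 were sought over the 6 arrays, by the root mean square distance between profiles centred on their own means. Nearest to Sele were Tek, the angiopoietin receptor of endothelium (distance 0.25, r = 0.986), Ptprb, a vessel phosphatase that acts on it (0.25, r = 0.985), and the monooxygenase gene Fmo2 (0.30, r = 0.990). Nearest to Vcam1 were Ifi207, of the interferon-inducible p200 family (distance 0.04, r = 0.998), the dipeptidase gene Dpep1 (0.10, r = 0.992) and Ecscr, an endothelial surface protein (0.11, r = 0.987). These correlations rest on 6 arrays in 2 groups and mostly restate the gap between the groups. The distance also follows the order of the arrays within a group. The Ifi207 mean was 8.21 where CD105 was present and 6.93 where it was not, a difference of 1.28 (SE 0.13, limma adjusted p = 0.00681). As Ifi207 was picked for its closeness to Vcam1, this difference and its p largely repeat those of Vcam1. The other 3 genes were not sought in this way because their range over the arrays was below 1.

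**Figure D3:**
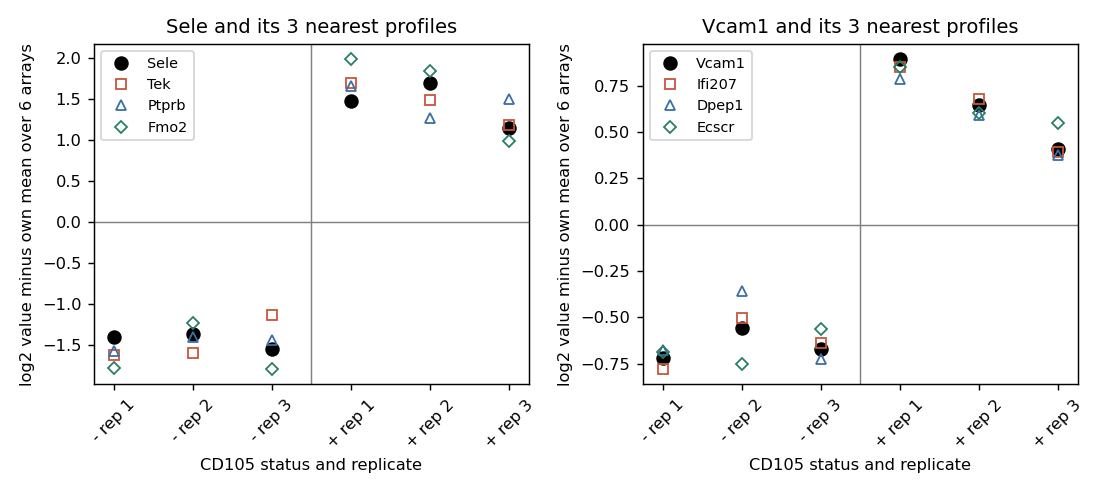
Log2 value minus the gene's own mean over the 6 arrays (vertical axis) for Sele and Vcam1 (filled black) and the 3 genes with the nearest profiles (open symbols), by CD105 status and replicate (horizontal axis). Ifi207 lies within a root mean square distance of 0.04 of Vcam1, and the Sele neighbours within 0.25 to 0.30.

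Other molecules that leukocytes meet on vessels rose with these genes. Of 6 measured selectin ligands and vessel sialomucins 3 rose and 0 fell, with a median difference of 0.50 against -0.02 over all genes. They were Emcn, a sialomucin of marrow vessels, by 4.61 (SE 0.27, limma adjusted p = 0.00047), Cd34, a sialomucin of vessels and progenitors, by 1.45 (SE 0.12, adjusted p = 0.00264), and Podxl, a sialomucin related to it, by 0.78 (SE 0.11, adjusted p = 0.0194). Glg1, which encodes the E-selectin ligand ESL-1, differed by -0.05, Cd44, which carries another, by 0.23, and Selplg, the gene of PSGL-1, by 0.15; these 3 did not pass. Podxl passed in 1 of the 6 fits that each leave out 1 array, that without CD73+CD105+ replicate 2, and had adjusted p up to 0.0828 in the others, without CD73+CD105- replicate 1, 2 or 3 or CD73+CD105+ replicate 1 or 3.

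Of 15 other docking and transmigration genes 7 rose and 0 fell, with a median difference of 0.27. Pecam1, which leukocytes bind as they pass between endothelial cells, rose by 3.63 (SE 0.20, limma adjusted p = 0.000356), and Cdh5, the cadherin of those junctions, by 3.34 (SE 0.16). F11r, the gene of JAM-A, rose 3.22-fold (adjusted p = 0.000779), Jam2, of JAM-B, 1.81-fold (0.0229), Esam, of a junctional adhesion molecule, 1.67-fold (0.00508), and Bcam, of a laminin receptor, 1.56-fold (0.0269). The other was Mcam, the gene of CD146, at 0.58 (adjusted p = 0.0208), which passed in 1 of the 6 fits without 1 array, that without CD73+CD105+ replicate 2; without any one of the other 5 arrays its adjusted p was at most 0.0913. In the ICAM family, RefSeq places Icam4 and Icam5 next to Icam1 on chromosome 9, and they differed by -0.11 and -0.13 without passing. Madcam1, the gut ligand of the integrin that pairs alpha4 with beta7, differed by 0.18 and did not pass. Jam2 and Bcam each passed in 2 of the 6 fits without 1 array. The adjusted p of Jam2 was at most 0.0895 in the others, without CD73+CD105- replicate 1 or 2 or CD73+CD105+ replicate 1 or 2. That of Bcam was at most 0.106, without CD73+CD105- replicate 1 or 3 or CD73+CD105+ replicate 1 or 2.

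On the leukocyte side, 0 of 11 integrins and counter-receptors passed in limma (3 at an unadjusted p under 0.05), and their median difference was -0.04. The beta2 chain gene Itgb2 and the LFA-1 alpha chain gene Itgal, which encode the partners of both ICAMs, were both below the receptor gene background level in either population. Itga4, a chain of VLA-4, was also below it and differed by 0.32 (adjusted p = 0.0956), and Itga9, of a related alpha chain, differed by 0.33 with overlapping groups. The Itga9 value ranged from 0.18 without CD73+CD105+ replicate 1 to 0.60 without CD73+CD105- replicate 3; it was 0.20 without CD73+CD105- replicate 1 or 2, 0.58 without CD73+CD105+ replicate 2 and 0.05 in replicates 2 and 3. Of 8 enzymes that build selectin ligands 0 passed (1 at an unadjusted p under 0.05; median 0.06), with the sulfotransferase gene Chst2 at 0.32 and the branching enzyme gene Gcnt1 at -0.19.

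Transcripts of the cytokine pathway that induces Sele, Vcam1 and Icam1 in endothelium were read as well. Of 22 measured ligands, receptors, NF-kappaB subunits and regulators, 0 passed in limma, where 1.82% of all genes did. In this list 7 had an unadjusted p under 0.05, and the median difference was 0.09. Il1r1, Nfkb1 and Chuk were not among the genes measured, and the activity of the pathway was not tested. Il1rap, a chain of the interleukin-1 receptor, differed by 0.53 with overlapping groups (adjusted p = 0.253); it was 1.18 in replicate 1 and 0.20 in replicates 2 and 3, and 0.32 without CD73+CD105+ replicate 1. Ifngr1, of the interferon-gamma receptor, differed by 0.44 without overlap (adjusted p = 0.0896). The NF-kappaB subunit gene Rela stood lower, at -0.25, with an adjusted p of 0.138. Among the ligand genes, Tnf and Il1a had both means below the receptor gene background level. Il1b had a CD73+CD105- mean of 6.06, just above that level, with 6.36, 6.45 and 5.37 in replicates 1, 2 and 3. Its CD73+CD105+ mean of 5.63 lay below the level. The Il1b difference was -0.43 with overlapping groups (limma adjusted p = 0.482). Of 13 other cytokine-inducible genes 1 rose, Csf1, the macrophage growth factor, by 0.83 (SE 0.11, adjusted p = 0.017). Ccl2, a monocyte chemokine, differed by 0.67 (adjusted p = 0.0552), and passed at 0.0353 without CD73+CD105+ replicate 2. The rest included Il6 at 0.03 and Sod2 at 0.004. Csf1 did not pass without CD73+CD105- replicate 1 or 2 or CD73+CD105+ replicate 1, with adjusted p up to 0.0639. Of 12 genes that tether these molecules to the cytoskeleton or shed them from the surface, 0 passed (2 at an unadjusted p under 0.05; median 0.09), with Rhog, a GTPase active in the docking cup, at 0.34 and the linker gene Ezr at -0.25.

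**Figure D4:**
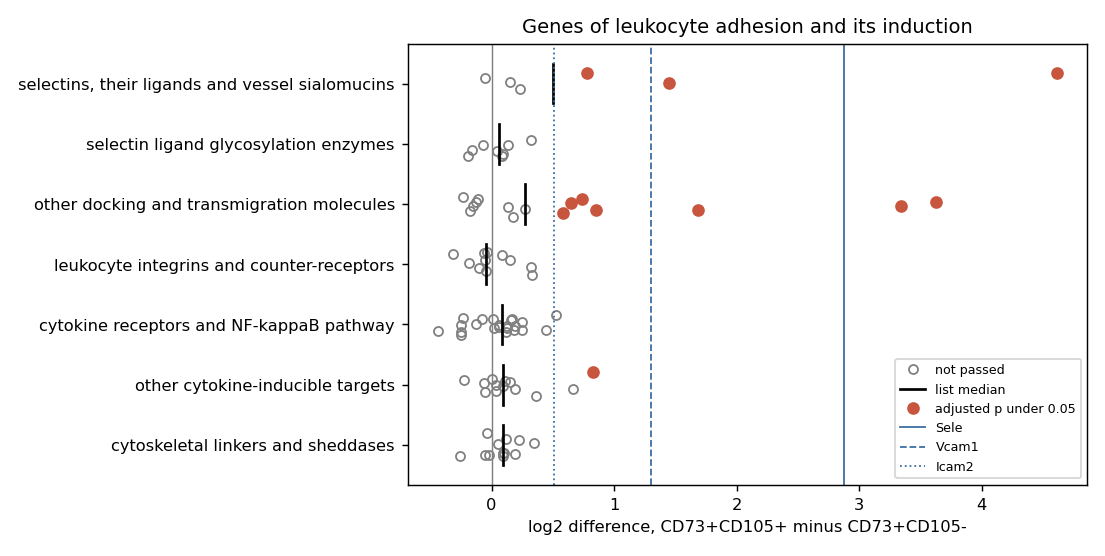
Log2 difference, CD73+CD105+ minus CD73+CD105- (horizontal axis), of each gene in 7 lists of leukocyte adhesion and its induction; filled red circles passed in limma, open grey circles did not, black bars are list medians, and blue lines mark Sele (2.87), Vcam1 (1.30) and Icam2 (0.51). The filled circles lie in the sialomucin and docking lists, plus Csf1 among the cytokine-inducible targets.

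Over the 7 lists 11 of 87 genes passed, or 12.6% against 1.82% of all genes. The lists were chosen with results of these data known and hold endothelial genes, so this share is a description of them.

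Markers of endothelium, of reticular stroma and in part of pericytes moved with the 3 adhesion genes that rose. The marker lists are not separate from the lists above. Emcn, Pecam1, Cdh5 and Esam are also in the pan-endothelial list, Podxl in the arteriolar list and Mcam in the pericyte list, so their values appear again here. All 17 pan-endothelial genes had a difference above 0 and 13 rose, with a median of 1.31. Their summed linear signal was 1372 to 1573 in the CD73+CD105- arrays and 4942 to 6235 in the CD73+CD105+ arrays. Of these 17 genes, 6 had a larger difference than Sele, 9 than Vcam1 and 14 than Icam2. Of 13 reticular stroma genes 6 rose, among them Lepr by 0.93 and Cxcl12 by 1.31, and 3 had a larger difference than Vcam1. Their summed signal was 6364 to 6896 and 10406 to 10734. The sinusoidal genes Stab2 and Stab1 differed by 0.02 and 0.32 and the arteriolar genes Gja5 and Gja4 by 0.04 and 0.15 without passing. Gja5 and Gja4 lay below the receptor gene percentile. Of 8 sinusoidal genes 7 were above 0 (median 0.17) and 1 rose, Plvap by 1.25 (limma adjusted p = 0.0306). Their summed signal was 476.1 to 519.6 in CD73+CD105- and 641.2 to 817.4 in CD73+CD105+ arrays. Of 10 arteriolar genes 9 were above 0 (median 0.20) and 1 rose, Podxl by 0.78. Their summed signal was 1501 to 1576 and 1672 to 1750. Of 10 pericyte and smooth muscle genes 4 rose, among them Rgs5 by 1.72, while Cspg4 differed by -0.47 without passing. In this list 8 were above 0 (median 0.46), and 1 had a larger difference than Vcam1. The summed signal of the list was 1804 to 2170 in CD73+CD105- and 2406 to 3046 in CD73+CD105+ arrays. In bulk samples, more cells of a type and more RNA per cell cannot be told apart. The part of each of these cell types in the adhesion gene differences was not tested.

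VCAM-1 is also known from marrow macrophages and ICAM-2 from platelets. Of 11 macrophage genes 0 passed (1 at an unadjusted p under 0.05 in limma). Their defining genes Adgre1 and Csf1r had CD73+CD105- means of 3.99 and 5.33 and CD73+CD105+ means of 3.89 and 5.33, all below the receptor gene percentile. In all 7 of the 11 had both means below it, whereas Cd68 was at 6.89 and 7.05 and Cd14 at 6.51 and 6.64. Lyz2 was at 5.64 and 6.02 without passing (adjusted p = 0.0731). Over the 11 genes the summed signal was 555.5 to 575.9 and 576 to 628.8. Of 6 megakaryocyte and platelet genes 0 passed (1 unadjusted). Their summed signal was 399.5 to 465.2 in CD73+CD105- and 406.2 to 469.5 in CD73+CD105+ arrays. Pf4 was below the percentile, and Itga2b was at 6.41 and 6.47. Of the 6, 1 had a larger difference than Icam2, at 0.55, and 5 had a smaller one (list median -0.02). The part of platelets in the Icam2 values was not tested. Lists for granulocytes (7 genes), lymphocytes (6) and erythroid cells (6) held 0 genes past the threshold, and at an unadjusted p under 0.05 they held 0, 1 and 0. Elane and Mpo of granulocytes, Ptprc and Cd79a of lymphocytes and Alas2 and Klf1 of erythroid cells had both means below the background level. Over the lists 4 of 7, 4 of 6 and 3 of 6 genes did, while others lay above it, such as S100a9 at 7.26 and 7.28, Cd3e at 6.59 in both populations and Epor at 6.41 and 6.30. Of the cartilage genes, Acan had means of 12.68 (CD73+CD105-) and 12.46 (CD73+CD105+) and Col2a1 of 11.58 and 11.33, all far above the receptor gene percentile. The summed signal of the 9 cartilage genes was 33337 to 39081 in CD73+CD105- and 26701 to 33600 in CD73+CD105+ arrays. All 9 cartilage genes had a difference below 0, as Alcam did, with a median of -0.26, and 0 of them passed (5 unadjusted); their part in the Alcam values was not tested. The 13 immediate early genes, which tissue dissociation is known to raise, all lay below 0 as well (median -0.20, 0 passed, 3 unadjusted), with Fos at -0.11 and Fosb at -0.30. Of 6 osteoblast genes 0 passed (2 unadjusted), with Ibsp at 0.17 and Sp7 at -0.35. Their summed signal was 11087 to 11748 in CD73+CD105- and 11371 to 13252 in CD73+CD105+ arrays.

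**Figure D5:**
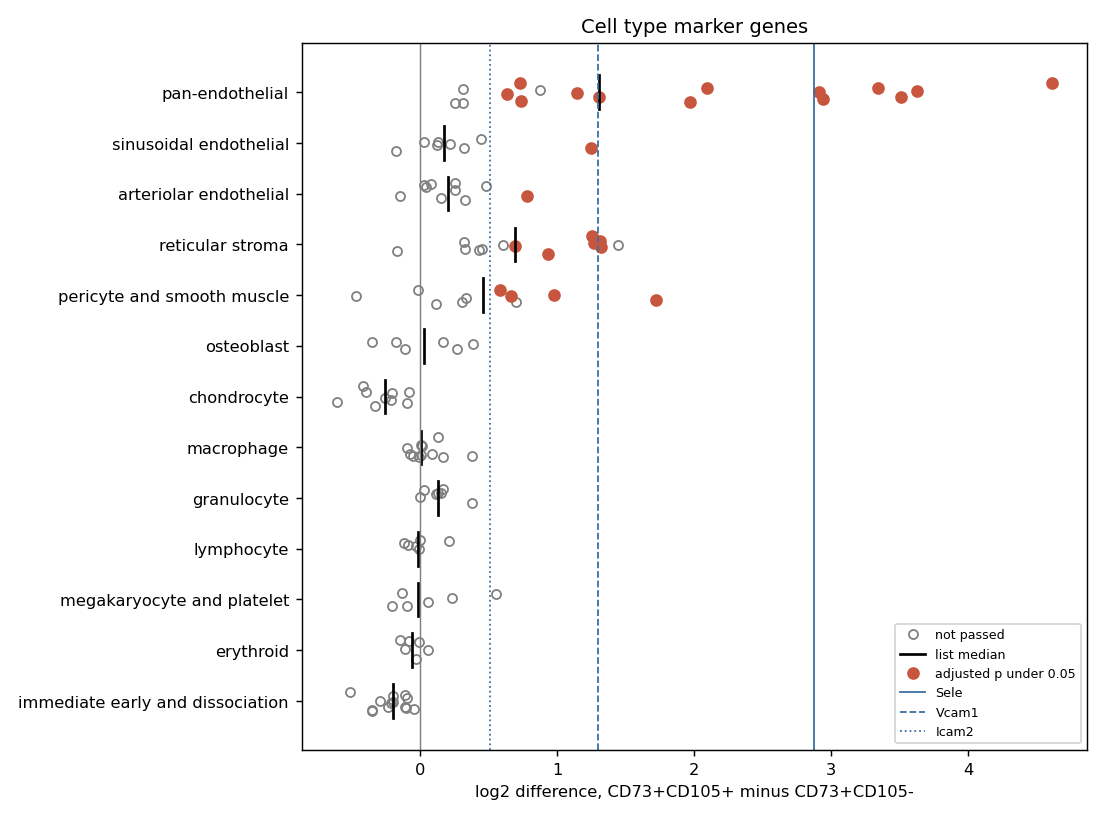
Log2 difference, CD73+CD105+ minus CD73+CD105- (horizontal axis), of each marker gene by list; filled red circles passed in limma, open grey circles did not, black bars are list medians, and blue lines mark Sele, Vcam1 and Icam2. The pan-endothelial genes run from 0.25 to 4.61 with a median of 1.31, and the leukocyte, platelet and erythroid lists hold no filled circle.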

How the data were processed

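The deposited table holds log2 values of probe sets on 1-colour biotin arrays, computed by the authors with RMA (background correction, quantile normalization and probe set summary), per the submitters' processing notes. For software version and genome build, nothing is given in the sources used here. The platform annotation paired 21789 of the 35556 probe sets with 1 gene symbol, 1621 with several and 12146 with none; 21698 of the 21789 matched RefSeq by Entrez ID with 0 symbols changed. Per gene the probe set with 1 symbol and the highest mean over the 6 arrays was used, giving 19938 genes. There are no detection calls. Differences were tested with limma 3.58.1 in R 4.3.3 (lmFit, eBayes, two-sided, no block), CD73+CD105+ minus CD73+CD105-, adjusted by Benjamini-Hochberg over all genes at a threshold of 0.05. The fit was tested on simulated data. Summed signals are sums of 2 to the power of the log2 value.

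The 5 genes and the 20 lists (217 symbols, 202 measured) were chosen with earlier results of these data known. Named from each pathway list were up to 6 genes past the threshold, or the 2 largest differences where fewer than 2 passed, and from each marker list the first 2 measured genes; other names were chosen after their values were seen. Alternatives covered normalization, filters, variance model, array weights, a replicate block, a term for replicate 1 and left-out arrays.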

Additional observations from a re-analysis of the deposited data

How the results depend on the processing

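Over the alternatives the 5 differences kept their direction, in 78 of 78 values. Sele passed in all 16. Vcam1 passed in 15, and did not in replicates 2 and 3 alone (difference 1.14, adjusted p = 0.083). Icam2 passed in 7 of 15; with unchanged size it did not pass with the replicate block (0.51, adjusted p = 0.0727), with the term for replicate 1 (0.51, 0.0786) or in replicates 2 and 3 alone (0.51, 0.304), and with 1 array left out it ranged from 0.47 to 0.53. Icam1 and Alcam passed in none; Icam1 ranged from 0.21 to 0.54 with 1 array left out (adjusted p 0.153 to 0.548 in limma) and Alcam from -0.71 to -0.38 (0.0816 to 0.542). Icam2 and Alcam lie below the median level of all genes, so that filter gave no value for them, and no gene of the 5 had another probe set. The count of 363 genes past the threshold was 215 with the replicate block, 101 with the term for replicate 1, 1331 with array weights, 29 in replicates 2 and 3 alone and 86 to 293 with 1 array left out. The cause of these moves was not tested. The replicate block, the term for replicate 1 and the array weights used all 6 arrays, and the other settings just named used fewer. No label says that the replicate numbers pair samples, so the block is given here and not as a main result. Same-numbered deviations from the group means correlated at -0.883, 0.007 and 0.104 for replicates 1, 2 and 3. The value for replicate 1 cannot test pairing. It restates how close the mean of its arrays lay to the mean of the other 4. Of the 11 named pathway genes past the threshold, 4 passed under each setting run (Emcn, Pecam1, Cdh5 and F11r); of 314 values for 20 named pathway genes (those of the naming rule and Mcam) 39 lost the call, 8 gained it and 0 changed sign.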
